A study of Mus musculus with 75 samples.

Results

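Mouse erythroid cells leaving mitosis were used to follow 6905 binding sites at which the cohesin subunit Rad21 was already called by ana/telophase and at which CTCF and Rad21 both sat in late G1. A late-G1 Rad21 peak was taken when it shared at least 1 bp with a late-G1 CTCF peak and with a Rad21 peak of pro-metaphase or ana/telophase. Of 18958 late-G1 Rad21 peaks, 18017 overlapped a CTCF peak (co-bound sites), and the 6905 sites, called mitotic-exit sites here, were 38.3% of these. The other 11112 co-bound sites, called later sites, gained their first Rad21 peak in early G1 (2763 sites), mid G1 (5075 sites) or late G1 alone (3274 sites). The sites were thus chosen by Rad21 peaks of 3 stages and CTCF peaks of late G1, and these values are given as descriptions only.

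The cells were G1E-ER4, an erythroid line of strain 129 derived from G1E, a GATA1-null proerythroblast line, so every group shares this origin and comes from 1 line. Nocodazole (200 ng/ml, 7 to 8.5 h) arrested them in pro-metaphase, and they were collected 0 min (pro-metaphase), 25 min (ana/telophase), 60 min (early G1), 120 min (mid G1) or 240 min (late G1) after its removal, and Hi-C cells were sorted. CTCF and Rad21 ChIP-seq were available at these 5 stages and in asynchronous cells, and Hi-C loops, stripes and domains at the 5 stages. The deposited peak lists pool 2 samples per stage (3 for CTCF in pro-metaphase), and Hi-C had 2 per stage, so no difference could be set against replicate spread, and the depth behind the lists is unknown.

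CTCF is a zinc-finger protein that binds a directional DNA motif. Cohesin is a ring complex, with Rad21 as the subunit that closes the ring, and it enlarges chromatin loops until it meets CTCF. A loop between a pair of such sites appears in Hi-C as a focal peak of contacts, a stripe as a line of contacts running from 1 anchor across a stretch of chromatin, and a boundary as the edge of a domain of raised contact. Much of CTCF and cohesin leaves chromosomes in mitosis, and the architecture is rebuilt as cells enter G1.

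The early Rad21 peaks that chose the sites were mostly ana/telophase peaks. A Rad21 peak of ana/telophase covered 6875 of the 6905 sites, one of pro-metaphase covered 468, and 30 sites rested on pro-metaphase alone. These took up 86.1% of the 7995 ana/telophase peaks (6887 peaks) and 79.9% of the 596 pro-metaphase peaks (476 peaks). Most sites were well inside the rule: the overlap had a median of 208 bp, and the best early peak had a −log10 q of at least 5 at 6019 sites (87.2%) and of less than 1.3 at 18.

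At the edge of the rule, the sites on either side had late-G1 Rad21 folds under the 15.1 that is the median of the mitotic-exit sites. Just inside lay chr3:53394128-53394294 with 36 bp of overlap, chr3:100720705-100720957 with 40 bp and chr4:122589963-122590187 with 47 bp, with late-G1 Rad21 folds of 4.53, 4.59 and 6.39 over background. Just outside lay chr4:45868715-45868953, chr11:120123718-120123971 and chr2:143806546-143806830, whose nearest early Rad21 peak ended 61, 63 and 82 bp away and whose late-G1 Rad21 folds were 7.19, 9.32 and 7.69. Only 217 of the 11112 later sites had an early Rad21 peak within 1000 bp, and their median gap was 64516.5 bp, so few sites sat close to the limit.

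The mitotic-exit sites were the broad, high Rad21 peaks of late G1. Fold enrichment is the authors' value for each peak; it ranks peaks within 1 list, and values from lists of different stages are not read as a change. The late-G1 Rad21 fold of the 6905 sites had a median of 15.1 (quartiles 10.4 to 20.8, lowest 2.25, highest 48.9). It was lower step by step with the stage of the first Rad21 peak, with medians of 10.9 at sites first called in early G1, 7.45 at those first called in mid G1 and 5.37 at those of late G1 alone. Peak width followed the same order, with medians of 353, 310, 257 and 208 bp. The CTCF fold in late G1 did so too: 30.8 at mitotic-exit sites (quartiles 23.9 to 37.5) against 24.8, 20.5 and 18.2. These differences come from the Rad21 and CTCF lists that chose the sites and are descriptions. The ranges overlapped widely, and 381 mitotic-exit sites lay in the lowest quartile of late-G1 Rad21 fold of all co-bound sites (1.96 to 6.19), beside 3651 in the highest.

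The strongest site was called in every list. At chr1:69288285-69288825, with the highest late-G1 Rad21 fold, that fold was 5.01, 14.5, 31.5, 35.2 and 48.9 at the 5 stages in order. CTCF was called there throughout, with folds of 18.4, 31.6, 44.0, 44.3 and 40.8. The next sites by late-G1 Rad21 fold were chr19:44657047-44657618 (47.6), chr2:39228558-39229018 (47.4), chr6:88139431-88139881 (46.9) and chr11:11873228-11873833 (46.4). All 5 were at a loop anchor from early G1 on and none in ana/telophase, and those on chromosomes 19 and 11 were also stripe anchors from early G1 on. The highest ana/telophase Rad21 folds lay at chr2:153412220-153412726 (31.7), chr5:65204688-65205161 (31.1) and chr15:102817753-102818246 (25.9), and these 3 were at a loop anchor already in ana/telophase.

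Sites with a pro-metaphase Rad21 peak had a higher median late-G1 Rad21 fold than the rest of the group. The median was 24.0 at the 468 sites with such a peak, against 14.6 at the 6437 without one. The ranges were nearly the same, at 2.25 to 48.9 and 2.32 to 46.9. CTCF was also called in pro-metaphase at 79.1% of the 468 (95% exact binomial interval 75.1 to 82.7), against 63.2% (62.0 to 64.4) of the others. The pro-metaphase peaks of lowest q were at chr3:101297734-101298174 (−log10 q 8.70), chr1:182198703-182199222 (7.44) and chr15:11901602-11902009 (7.44). Of the 468, 276 had a pro-metaphase −log10 q under 1.3, and these had a median late-G1 Rad21 fold of 23.4, close to the 24.7 of the other 192.

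Rad21 was mostly called in early and mid G1 too. The rule requires a late-G1 Rad21 peak, so sites that had lost Rad21 by then are left out. The later classes are set by the stage of their first Rad21 peak, so the early-G1 and mid-G1 shares over all co-bound sites are partly fixed by definition. Of the 6905 sites, 83.6% had a Rad21 peak in early G1 (47.4% of all co-bound sites), 97.1% in mid G1 (80% of all co-bound sites) and 93.9% in asynchronous cells (71.2% of all co-bound sites). The Rad21 lists hold 7995 peaks in ana/telophase, 8694 in early G1 and 15762 in mid G1. Some sites were missing in early G1 and present before and after, and the cause was not tested. Rad21 peaks ran without a break from ana/telophase to late G1 at 5276 sites, and 435 more had them at all 5 stages, with median late-G1 Rad21 folds of 16.1 and 24.5. From ana/telophase on, early G1 alone was missing at 958 sites without pro-metaphase Rad21 (median late-G1 fold 9.05) and at 3 with it, and both early and mid G1 at 162 sites (median 5.84). Of these 162, the highest ana/telophase Rad21 folds were at chr14:46051738-46051973 (9.82), chr1:195529356-195529547 (8.74) and chr11:117253664-117253923 (8.67), where CTCF was called in all 6 lists.

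CTCF, which the rule used in late G1 only, was called far earlier at these sites than at later ones. In pro-metaphase 64.3% of the mitotic-exit sites had a CTCF peak (4438 of 6905; interval 63.1 to 65.4), beside 43.9% of all co-bound sites and 31.3% of the later sites. The difference from the later sites was 33.0 percentage points (95% Newcombe interval 31.6 to 34.4). By ana/telophase the shares were 97.9% and 78.6% (86% of all co-bound sites), and by early G1 99.6% and 92.1% (95% of all). In mid G1 nearly every mitotic-exit site had CTCF (99.96%, beside 98.6% of all co-bound sites), and in asynchronous cells 99.6% did (95.5% of all). Binomial and Newcombe intervals cover counting error only and treat sites as independent, although sites within 1 Hi-C bin share its loops and stripes.

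**Figure D1:**
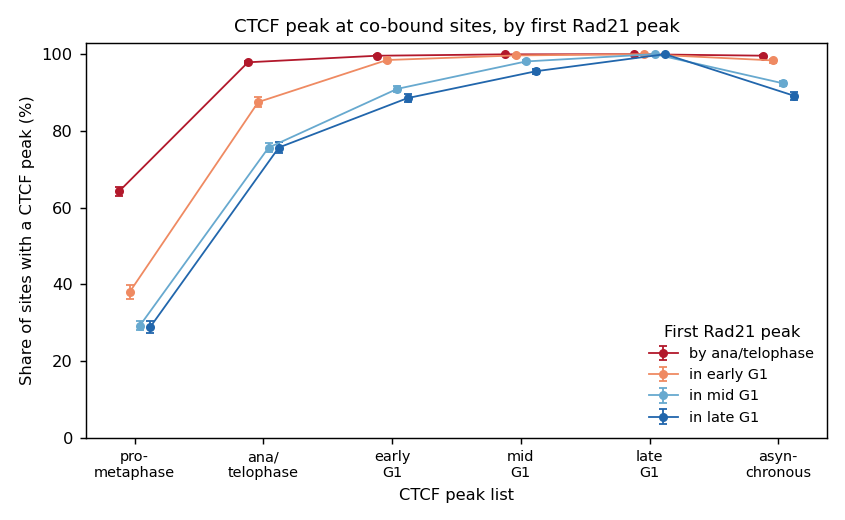
Share of co-bound sites with a CTCF peak (y axis, %) in each CTCF peak list (x axis), for the 6905 sites with Rad21 by ana/telophase and for sites whose first Rad21 peak came in early, mid or late G1. Bars are exact 95% binomial intervals. The mitotic-exit sites stand at 64.3% in pro-metaphase, above the 37.9%, 29.2% and 28.8% of the other classes, and all classes meet at 100% in late G1, where CTCF was required.

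Among the later sites, those with a first Rad21 peak in early G1 were nearest to the mitotic-exit sites, with CTCF in pro-metaphase at 37.9%. The mid-G1 and late-G1 classes stood together at 29.2% and 28.8%. The separation held within quartiles of late-G1 Rad21 fold. From lowest to highest, CTCF was called in pro-metaphase at 60.1%, 60.6%, 62.8% and 66.4% of the mitotic-exit sites and at 30.3%, 30.5%, 32.8% and 34.7% of the later ones. Rad21 strength can still differ within a quartile: the highest runs from 14.6 to 48.9, and later sites reach only 30.1. Within quartiles of late-G1 CTCF fold the separation was smaller, at 15.9, 20.3, 12.1 and 2.93 points from the lowest to the highest quartile. In the highest CTCF quartile the classes were thus near each other.

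Once called, CTCF was called at each stage through late G1 at all but 3 of these sites, which had it in ana/telophase but not in early G1. All 4438 sites with CTCF in pro-metaphase had it in every one of the 6 lists, as did 3469 of the 3473 such later sites and 7907 of 7911 over all co-bound sites, so this was no trait of the mitotic-exit sites alone. At another 2318 sites (33.6%) CTCF appeared in ana/telophase and was called at each stage after, at 121 it first appeared in early G1, at 22 in mid G1 and at 3 in late G1. The first CTCF peak thus preceded the first Rad21 peak at 4068 sites (58.9%), came at the same stage at 2596 (37.6%) and followed it at 241 (3.49%). The rule sets the first Rad21 peak by ana/telophase, so CTCF could come first only through the pro-metaphase lists. Those lists hold 11604 CTCF peaks and 596 Rad21 peaks, so the order of calls cannot be told apart from list length.

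The sites where Rad21 came first were few but included high peaks. Of the 241, 98 had a pro-metaphase Rad21 peak without CTCF there, and 146 had ana/telophase Rad21 with no CTCF by then. The site chr11:11873228-11873833 had Rad21 in pro-metaphase (fold 6.57, −log10 q 3.92) and CTCF from ana/telophase (11.3 there, 40.3 in early G1). At chr15:73015666-73016102, with a late-G1 Rad21 fold of 41.8, Rad21 had a weak pro-metaphase peak (fold 4.51) and CTCF none before ana/telophase (17.1). The −log10 q of that Rad21 peak was 0.72, under 1.3, so it is weak ground for Rad21 coming first. The third of the highest sites without pro-metaphase CTCF, chr12:12427597-12428208 (late-G1 Rad21 fold 41.8), had no pro-metaphase Rad21 either, and both were first called in ana/telophase. Among the 146, the highest late-G1 Rad21 folds were at chr15:63432907-63433570 (31.6), chr17:25606863-25607271 (29.3) and chr16:33739922-33740355 (27.6). At the last, Rad21 had a fold of 3.01 in ana/telophase with no CTCF peak, and CTCF had one of 18.7 in early G1. Across the 121 sites with CTCF from early G1, the median late-G1 CTCF fold was 17.1, against 34.0 at those with CTCF from pro-metaphase.

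The nearest other mitotic-exit site was at a median of 52837 bp (quartiles 16605 to 135647). Another one lay within 10 kb for 17.8% of the sites (1227), within 50 kb for 48.6%, within 100 kb for 68.0% and within 500 kb for 94.4%. They filled 6581 bins of 10 kb, so few shared a Hi-C bin. The nearest co-bound site of any class was at a median of 18162 bp, against 21794 bp for the later sites. It was itself a mitotic-exit site for 41.9% of the mitotic-exit sites (interval 40.7 to 43.1) and for 36.1% of the later ones (35.2 to 37.0), beside 38.3% of all co-bound sites. Within a peak, Rad21 and CTCF summits were 26 bp apart in the median (quartiles 15 to 38), close to the 25 bp of the later sites.

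Chromosome X held a lower share of these sites than any autosome. On the 19 autosomes between 32.4% (chromosome 16) and 45.7% (chromosome 1) of the co-bound sites were mitotic-exit sites. On chromosome X, 86 of 456 were (18.9%; interval 15.4 to 22.8), against 38.8% on the autosomes together. Co-bound sites on X had lower CTCF folds in late G1 (median 18.1 against 25.1), while their Rad21 folds were nearer (8.52 against 9.23). By quartile of late-G1 Rad21 fold the X shares were 5.00%, 6.71%, 26.0% and 59.0% from lowest to highest, and the autosomal ones 8.51%, 20.4%, 44.4% and 81.8%. By quartile of late-G1 CTCF fold the X shares were 5.19%, 22.6%, 49.2% and 45.5% (the last of only 11 sites), against 12.0%, 32.2%, 46.3% and 63.6%, so X was lower in all but the third. The part of CTCF strength in this was not tested. Of the 86 sites on X, 36.0% had CTCF in pro-metaphase (26.0 to 47.1), against 64.6% on the autosomes. Over all co-bound sites these shares were 22.1% on X and 44.5% on the autosomes.

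**Figure D2:**
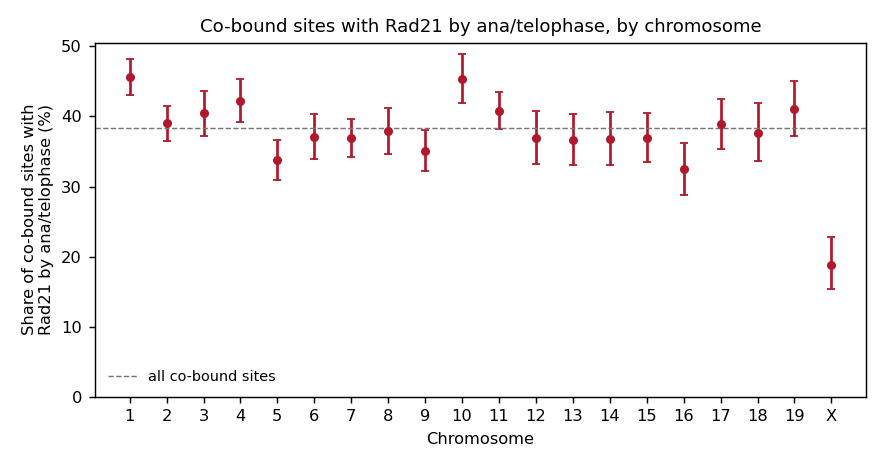
Share of co-bound sites that had Rad21 by ana/telophase (y axis, %) on each chromosome (x axis). Points are shares with exact 95% binomial intervals, and the dashed line is the share over all co-bound sites (38.3%). Chromosome X stands at 18.9%, below the autosomes, which lie between 32.4% and 45.7%.

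As loop anchors, the mitotic-exit sites were ahead of the later ones at every stage after pro-metaphase. A site counts as an anchor when its peak overlaps an anchor of a deposited loop. In pro-metaphase 10 sites did (0.145%, beside 0.105% of all co-bound sites), in a list of 84 loops. In ana/telophase 755 sites did (10.9%; interval 10.2 to 11.7), against 5.35% of the later sites and 7.49% of all. The share was 63.3% in early G1 (41.9% of later sites, 50.1% of all), 74.4% in mid G1 (55.9%, 63% of all) and 77.8% in late G1 (76.8 to 78.7; 60.3% of later sites, 67% of all). The late-G1 difference was 17.5 percentage points (16.1 to 18.8). The lists grow from 84 to 11340 loops, so the higher shares hold the growth of the lists.

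**Figure D3:**
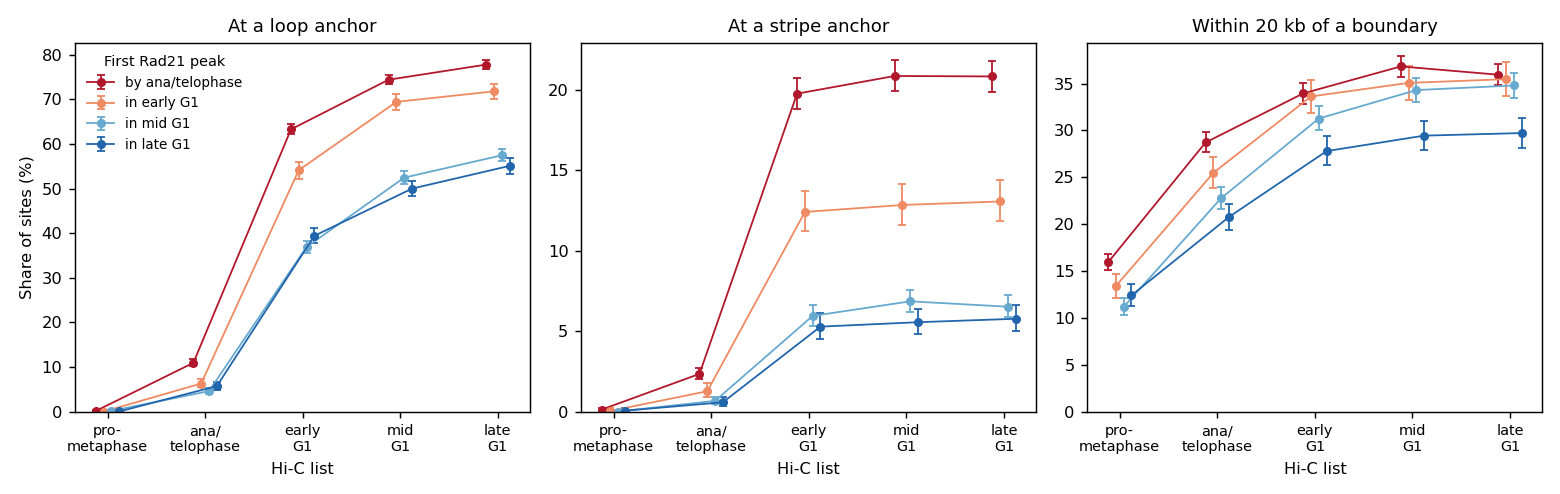
Share of co-bound sites (y axes, %) at a loop anchor, at a stripe anchor and within 20 kb of a domain boundary in the Hi-C lists of each stage (x axes), by the stage of the first Rad21 peak, with exact 95% binomial intervals. The mitotic-exit sites lead for loops and stripes from ana/telophase on, ending at 77.8% and 20.8% in late G1. Their late-G1 boundary share of 35.9% lies near the 35.5% and 34.8% of the early-G1 and mid-G1 classes and above the 29.7% of late G1 alone.

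Part of the loop difference went with Rad21 strength. Within quartiles of late-G1 Rad21 fold, 57.5%, 65.4%, 75.1% and 84.4% of the mitotic-exit sites were late-G1 loop anchors from lowest to highest, against 55.2%, 58.5%, 66.6% and 74.2% of the later sites. The difference was 2.24 points in the lowest quartile (interval -3.00 to 7.33) and 10.2 in the highest. Within quartiles of CTCF fold it ran from 10.5 to 14.9 points. Among the mitotic-exit sites themselves, the late-G1 loop share was higher at higher ana/telophase Rad21 folds, from 72.4% in the lowest quartile to 87.1% in the highest, and the ana/telophase loop share from 7.42% to 19.0%. With a pro-metaphase Rad21 peak the late-G1 share was 90.4% (87.3 to 92.9).

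**Figure D4:**
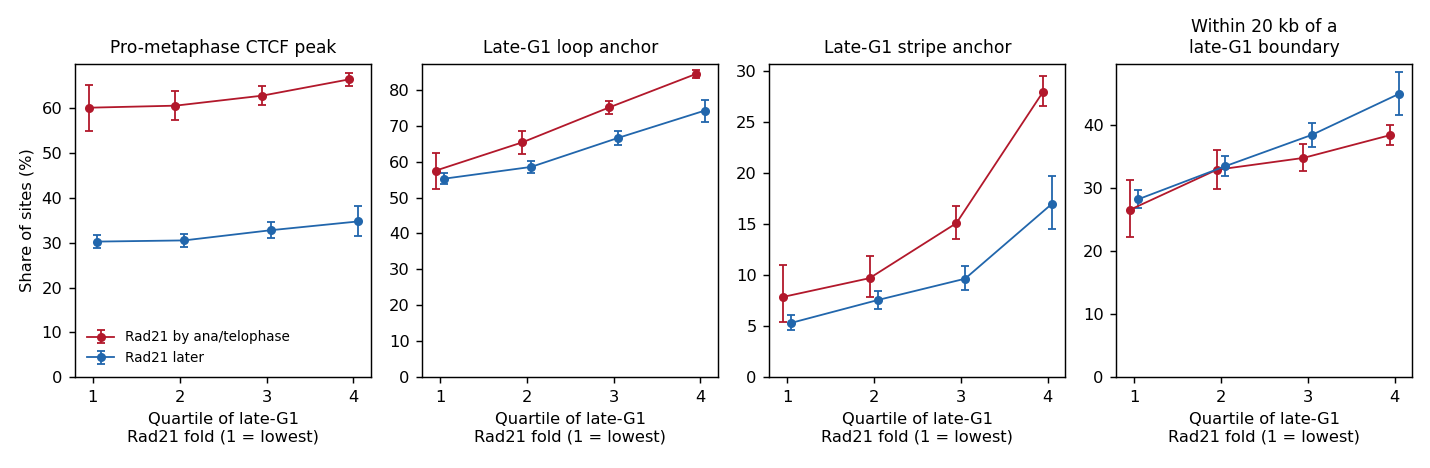
Share of sites (y axes, %) with a pro-metaphase CTCF peak, at a late-G1 loop anchor, at a late-G1 stripe anchor and within 20 kb of a late-G1 boundary, within quartiles of late-G1 Rad21 fold of all co-bound sites (x axes), for sites with Rad21 by ana/telophase and for later sites, with exact 95% binomial intervals. The CTCF panel keeps a wide separation, 60.1% against 30.3% in the lowest quartile, and the boundary panel shows the later sites at or above the mitotic-exit sites, 44.9% against 38.3% in the highest.

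Once a mitotic-exit site was an anchor it mostly remained one. Where its loops ran in 1 direction at both stages, that direction was mostly the same. First use as a loop anchor fell in ana/telophase at 746 sites (10.8%; 5.28% of later sites) and in early G1 at 3666 (53.1%; 37.2%). It fell in mid G1 at 990 (14.3%; 18.3% of later sites) and in late G1 at 370 (5.36%; 7.84%). At 1123 sites (16.3%; 31.3% of later sites) no loop was called at any stage. Of the 755 anchors of ana/telophase, 699 were anchors in late G1 (92.6%; 90.5 to 94.3), and of the 4368 of early G1, 95.5% were. The later sites kept 91.1% of each. Of the 517 sites whose loops ran in 1 direction both in ana/telophase and in late G1, 486 (94.0%) had the same direction, and from early G1 98.5% did. A site that keeps the same loop keeps its direction, and later sites were not counted, so this is not read as a trait of mitotic-exit sites. In late G1 2219 sites were left anchors only, 2252 right anchors only and 899 both, so neither side prevailed.

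Mitotic-exit sites joined more loops each than later sites. In late G1 61.1% of those at an anchor had at least 2 loops, against 47.6% of the later ones, with means of 2.08 and 1.73 loops. The most, 9, was at chr7:123183628-123184107, which had 2 loops in early G1 and 9 in mid G1. Another 4 sites had 8, among them chr1:130720790-130721140 and chr1:130729186-130729473, which shared their anchor. Both chromosome 1 sites and the chromosome 7 site were also vertical stripe anchors in late G1.

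Most loops of the rebuilt genome touched a mitotic-exit site. Of the 908 loops of ana/telophase 495 had one at an anchor (54.5%; 51.2 to 57.8), of the 7029 of early G1 65.7%, of the 9714 of mid G1 63.9% and of the 11340 of late G1 61.4%. For comparison, no co-bound site of any class lay at either anchor in 30.6%, 15.5%, 15.5% and 16.7% of the loops of these stages, in the same order. Both anchors held a mitotic-exit site in 196 loops of ana/telophase (21.6%) and 2259 of late G1 (19.9%). Late-G1 loops between 2 mitotic-exit sites had the highest observed over expected contact, a median of 4.32 (quartiles 3.13 to 6.11), against 3.84 with a mitotic-exit site and a later one, 3.56 with 2 later ones and 2.77 with no co-bound site. In ana/telophase the order was another, with medians of 3.43 between 2 mitotic-exit sites, 3.56 between 2 later ones (23 loops) and 3.51 with no co-bound site. In late G1 the median size of 180 kb was the same as that of loops between a mitotic-exit and a later site, and near the 170 kb of loops between 2 later ones.

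Late-G1 loops between 2 mitotic-exit sites were also called sooner than loops between 2 later sites. A late-G1 loop counts as called by a stage when that stage or an earlier one has a loop with both anchors within 20 kb. By ana/telophase this held for 12.0% of them (10.7 to 13.5), against 6.25% of loops between a mitotic-exit and a later site, 4.09% of loops between 2 later sites and 8.25% of all late-G1 loops. By early G1 the shares were 74.9%, 63.9%, 52.9% and 64.8%. Loops with no co-bound site at either anchor stood as high in ana/telophase, at 12.4%, so the early call was not particular to mitotic-exit sites. Among loops of 200 to 390 kb, 70.5% of those between 2 mitotic-exit sites and 47.7% of those between 2 later sites were called by early G1. From 400 kb on, 40.5% of loops between 2 mitotic-exit sites were called by early G1, against 18.2% between 2 later sites, 35.0% of all such loops and 51.7% of the 58 with no co-bound site. By ana/telophase 1.84% of these long loops between 2 mitotic-exit sites were called, against 22.4% of those with no co-bound site.

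**Figure D5:**
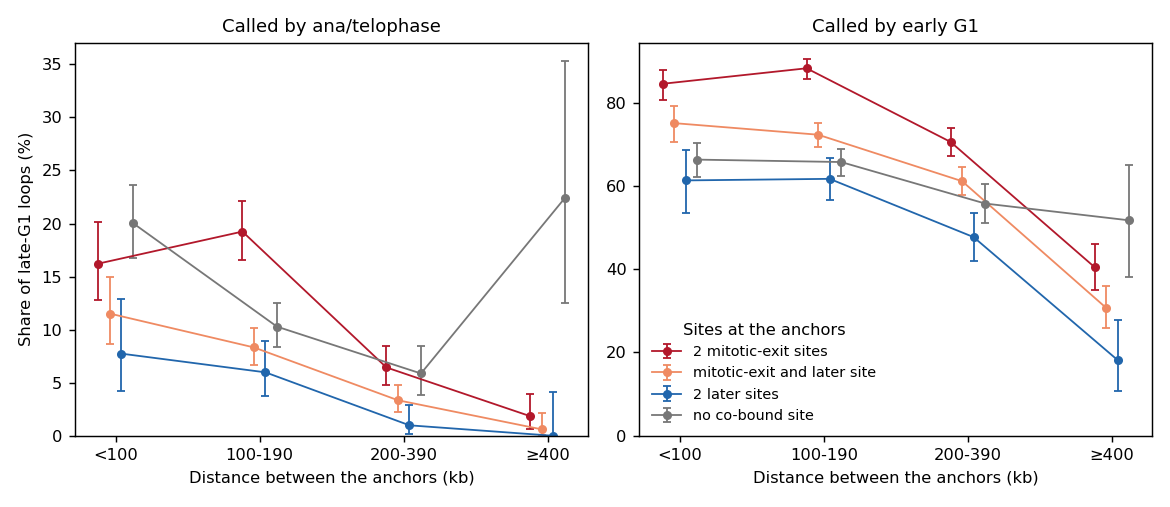
Share of late-G1 loops (y axes, %) called by ana/telophase (left) and by early G1 (right) in classes of distance between the anchors (x axes), by the sites at the anchors, with exact 95% binomial intervals. Loops between 2 mitotic-exit sites of 100 to 190 kb reach 88.2% by early G1, and those of 400 kb and over 40.5%.

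Loops between 2 mitotic-exit sites usually enclosed no further one. Of the 2259 in late G1, 1287 (57.0%) had none between their anchors, 503 had 1, 251 had 2 and 218 had 3 or more, with 13 the most. Those with none spanned a median of 140 kb and those with 3 or more 290 kb. The share called by early G1 was 79.5% with none, 74.2% with 1, 64.9% with 2 and 61.5% with 3 or more, an order that size follows too.

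As stripe anchors too, the mitotic-exit sites were ahead of the later ones. In late G1 20.8% of them were at a stripe anchor (1439 sites; 19.9 to 21.8), against 7.93% of the later sites and 12.9% of all. The difference from the later sites was 12.9 points (11.8 to 14.0). Later sites with a first Rad21 peak in early G1 were nearer, at 13.1%. At earlier stages 9 mitotic-exit sites were stripe anchors in pro-metaphase (0.130%, beside 0.0666% of all) and 162 in ana/telophase (2.35%, beside 1.39% of all). Early G1 had 19.8% (12.1% of all) and mid G1 20.9% (12.9% of all). The stripe share thus stood near its late-G1 level in early G1, while the loop share was higher in mid and late G1 than in early G1. The lists hold 39, 307, 1753, 1754 and 1745 stripes, and the near equal length of the last 3 limits what their shares can show of a change.

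Stripe anchors were strong Rad21 sites. The late-G1 stripe share was 14.4% in the lowest and 31.4% in the highest quartile of ana/telophase Rad21 fold, and it was 41.2% (36.7 to 45.8) at sites with pro-metaphase Rad21. Within quartiles of late-G1 Rad21 fold, the mitotic-exit sites stood at 7.87%, 9.72%, 15.1% and 28.0% and the later ones at 5.34%, 7.59%, 9.67% and 17.0%. The highest quartile is wide (14.6 to 48.9), and later sites reach only 30.1, so strength still differs within it. In the upper 2 quartiles of the mitotic-exit sites alone, the stripe share was 23.0% (folds of 15.2 to 20.8) and 34.0% (20.8 to 48.9). Of the 1439 stripe sites 96.7% were also at a loop anchor, against 72.8% of the other mitotic-exit sites, and 44.9% were near a boundary, against 33.6%. Anchors of horizontal stripes, which run to higher coordinates, and of vertical ones, which run to lower coordinates, were about as many (689 and 728 sites, with 22 in both).

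Most late-G1 stripes started at such a site. Of the 1745, 1161 had one at the anchor (66.5%; 64.3 to 68.7), 309 had later co-bound sites only and 275 none. Their median length was 330 kb, against 300 kb and 260 kb, and their median deposited strength 2.84, against 2.76 and 2.73. In ana/telophase 128 of 307 stripes had one (41.7%), and their strength was lower than that of stripes with no co-bound site (2.66 against 2.93). The strongest ana/telophase stripe with a mitotic-exit site, of strength 4.31, was vertical and its anchor held 3 of them, at chr10:126945360-126945659, chr10:126945990-126946396 and chr10:126949877-126950265. The last of these was a vertical stripe anchor at all 5 stages.

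At domain boundaries the mitotic-exit sites differed little from the later ones, and in late G1 the difference turned within quartiles of late-G1 Rad21 fold. A boundary is a start or end of a deposited domain within 20 kb of the peak. Pro-metaphase had 15.9% (12.1% of later sites, 13.6% of all) and ana/telophase 28.7% (22.9%, 25.1% of all). The G1 stages had 33.9% (30.8%, 32% of all), 36.8% (33.1%, 34.5% of all) and 35.9% (33.5%, 34.4% of all) in early, mid and late G1. The late-G1 difference was 2.48 points (1.05 to 3.91), and the widest, in ana/telophase, 5.86 points (4.54 to 7.19). Within quartiles of late-G1 Rad21 fold the late-G1 shares were 26.5%, 32.8%, 34.7% and 38.3% at mitotic-exit sites and 28.2%, 33.4%, 38.4% and 44.9% at later ones, and the intervals of the difference excluded 0 in the upper 2 quartiles only (-3.67 points, -6.48 to -0.83, and -6.53 points, -10.3 to -2.82). In early and mid G1 the highest quartile was reversed too, at -5.73 points (-9.45 to -2.05) and -4.81 points (-8.56 to -1.10). The intervals of the lower quartiles included 0 at both stages. In pro-metaphase the mitotic-exit sites had the higher share in all 4 quartiles (by 0.16, 2.22, 2.97 and 2.21 points, the interval excluding 0 in the third only). In ana/telophase they had it in all but the lowest, with every interval including 0. Within quartiles of late-G1 CTCF fold, the mitotic-exit sites had the higher share in every quartile in pro-metaphase and in ana/telophase. From lowest to highest, the pro-metaphase differences were 0.73, 3.15, 2.29 and 2.76 points, the interval including 0 in the lowest only. The ana/telophase differences were 2.74, 3.98, 5.37 and 0.895 points, the intervals including 0 in the lowest and highest quartiles only.

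Boundaries also had the lowest share kept into late G1 of the 3 uses. Over all mitotic-exit sites the late-G1 shares were 35.9% for boundaries, 77.8% for loops and 20.8% for stripes. Of the 1099 mitotic-exit sites near a boundary in pro-metaphase 55.5% were near one in late G1, and of the 1983 in ana/telophase 70.4% were, close to the 54.5% and 68.8% of later sites. The late-G1 boundary share changed little with the ana/telophase Rad21 fold, at 36.7%, 35.8%, 37.2% and 33.8% from the lowest to the highest quartile. A mitotic-exit site lay within 20 kb of 26.4% of the boundaries of ana/telophase and of 20.3% of those of late G1, so most boundaries had none.

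Taking the 3 uses at once, 11.5% of the mitotic-exit sites had no loop, stripe or boundary in late G1, against 24.1% of the later sites and 19.3% of all. All 3 uses met at 619 sites (8.96%), against 3.37% of the later sites and 5.51% of all. In ana/telophase all 3 met at 31 sites (0.449%, beside 0.233% of all). They stayed together at every later stage at 19 sites, of which chr1:168084086-168084730, chr17:45868134-45868723 and chr17:29651274-29651799 had the highest late-G1 Rad21 folds (36.2, 34.3 and 33.4). The first had 1 loop in ana/telophase, 5 in early G1 and 4 in mid and late G1, and was a vertical stripe anchor throughout those stages. The other pair also had CTCF in pro-metaphase, with folds of 22.8 and 43.0.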

How the data were processed

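CTCF and Rad21 ChIP-seq peaks and Hi-C loops, stripes and domains of 5 stages were analysed, and Capture-C, RNA polymerase II and input samples were not analysed here. Per the submitters' processing notes, reads were aligned to mm9 with Bowtie 0.12.7, peaks were called with MACS2 2.1.0 (also SAMtools 1.7 and bedtools 2.27.1), and Hi-C used Bowtie2 and HiC-Pro. The sources used here do not name the callers of loops, stripes and domains. Per the peak names in the files, replicates were merged and downsampled before the authors called peaks. The authors deposited for each peak a score, a fold enrichment (a ratio over background) and −log10 q values. Loops carry observed and expected contact signal and a p-value, and stripes a strength ratio, per the file headers.

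Overlaps were computed in Python 3.11.15 (SciPy 1.17.1, pandas 2.3.3, NumPy 2.4.6) and tested on simulated data (8 of 8 checks on 3000 and 2000 intervals passed). A site's stage classes need a 1 bp overlap, and coordinates are mm9, counted from 1. Lists pool replicates, so shares carry exact binomial and differences Newcombe 95% intervals and no p-values. Named regions are those with the highest late-G1, ana/telophase or pro-metaphase Rad21 values, the highest among sites lacking CTCF, Rad21 or a use, those with most loops or the strongest ana/telophase stripe, and those with all 3 uses, with ties by position. The sites, rules and classes were chosen with earlier results of these data known. Alternatives covered overlap, summit distance, q, list, bin, anchor, boundary distance and strength quartiles. No sequence of mm9 was used here.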

Additional observations from a re-analysis of the deposited data

How the results depend on the processing

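The number of mitotic-exit sites stayed within 1.5 times of 6905 under each rule tried, from 5249 (overlap of 50% of both peaks) to 6875 (ana/telophase list alone). Requiring an overlap of 50% gave 56.1% with CTCF in pro-metaphase and 76.5% at a late-G1 loop anchor, and early Rad21 peaks with a −log10 q of at least 5 gave 66.3% with CTCF in pro-metaphase and 22.1% at a late-G1 stripe anchor. Anchors widened by 10 kb gave 14.4% at an ana/telophase loop, 82.2% at a late-G1 loop and 25.5% at a late-G1 stripe. The late-G1 boundary share was most open to its definition: 22.6% within 10 kb, 50.7% within 40 kb and 20.2% with domains in no larger domain only.

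Mitotic-exit minus later sites, in percentage points from the lowest to the highest quartile, was as follows. Within quartiles of late-G1 Rad21 fold, CTCF in pro-metaphase differed by 29.8, 30.0, 30.0 and 31.7, late-G1 loop use by 2.24, 6.85, 8.50 and 10.2, stripe use by 2.53, 2.13, 5.45 and 11.01, and boundaries by -1.69, -0.58, -3.67 and -6.53, the reverse of the 2.48 over all sites, with intervals that include 0 in the lower 2 quartiles. Within quartiles of late-G1 CTCF fold, CTCF in pro-metaphase differed by 15.9, 20.3, 12.1 and 2.93, loops by 10.5, 10.5, 13.8 and 14.9, stripes by 6.93, 10.6, 12.6 and 14.1, and boundaries by 2.98, 4.30, 1.99 and -4.51, the last again reversed. The cause was not tested.

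The other 26 values, among them those for 1 site per 10 kb bin, stricter loop p-values and summits within 100 bp, moved by less than the 95% interval or 1.5 times. No paired analysis was possible because the deposited lists pool the replicates of each stage. Depth is unknown, so a missing peak or loop in a short list is not read as absence.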

Other observations

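The longest stretches without a mitotic-exit site lay on chromosome X. Summits at X 111915887 and 130226838 were 18.3 Mb apart with 10 later sites between them, and the next 2 stretches on X spanned 14.2 Mb (14 later sites) and 13.9 Mb (20 later sites). On the autosomes the longest were 11.6 Mb on chromosome 7, with 2 later sites, and 9.59 Mb on chromosome 3, with 26. Of the mitotic-exit sites on X, 45 of 86 were at a late-G1 loop anchor (52.3%; exact 95% binomial interval 41.3 to 63.2), against 78.1% on the autosomes (77.1 to 79.1), and 1 of the 86 was at a loop anchor in ana/telophase. Over all co-bound sites on X the late-G1 loop share was lower still, at 39.0%. Near a late-G1 boundary lay 40.7% of the mitotic-exit sites on X (30.2 to 51.8), against 35.9% on the autosomes.

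Some strong sites had no loop, stripe or boundary in late G1. The highest late-G1 Rad21 folds among them were at chr6:70702436-70702835 (40.1), chr1:88337092-88337477 (36.3) and chr19:10108931-10109805 (34.1). The first had 1 loop in ana/telophase and 1 in early G1 and none after, and the second 1 loop in ana/telophase only. CTCF was called in late G1 at all 3, with folds of 42.7, 34.3 and 41.3.

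Sites that had Rad21 by ana/telophase and lacked it in early G1 (1129) had a late-G1 loop share of 59.3% (56.4 to 62.2), against 81.4% (80.3 to 82.4) at those with an early-G1 peak, and their late-G1 stripe share was 7.00% against 23.5%. Their late-G1 boundary share was 37.9% (35.1 to 40.8), against 35.6%. Their median late-G1 Rad21 fold was 8.52, against 16.6.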
